A study of Mus musculus with 4 samples.

Results

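The keratin-associated proteins (gene symbols beginning with Krtap) and a small set of genes that harden the hair were examined in basal cells of mouse tail epidermis with and without the transcription factor Sox9. Members were chosen by name from the probe annotation: every gene whose symbol begins with Krtap, together with Tchh, Tchhl1, Padi1, Padi2, Padi3, Padi4, S100a3 and Foxn1. This gave 46 of 18193 measured genes, 38 of them Krtap genes and 8 hair hardening genes, read by 52 of 45037 probe sets. A further 6 probe sets were annotated with several genes, at least 1 of them a Krtap gene, and were kept apart because they name no single gene.

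All 4 arrays came from mice that carry K14CreER:SmoM2, in which tamoxifen switches on SmoM2, a constantly active form of the Hedgehog transducer Smoothened, in keratin 14-expressing keratinocytes. There were 2 arrays from K14CreER:SmoM2 cells with intact Sox9 (SmoM2) and 2 from K14CreER:SmoM2:Sox9cKO cells, in which Sox9 was also conditionally deleted (Sox9cKO). Tamoxifen was given at 2.5 mg on each of 10 consecutive days, and tail epidermis was taken 9 weeks after the initial injection in both groups. Mice without SmoM2 were not analysed here, so both genotypes express the oncogene. The sort kept integrin alpha 6-positive basal cells that lacked CD34, a bulge stem cell marker. The labels give neither the animals' age nor how many animals stand behind a replicate, so the spread that the p-values rest on may in part be technical.

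A hair shaft is built from keratin filaments set in a matrix of keratin-associated proteins, which are small and rich in cysteine or in glycine and tyrosine. Trichohyalin (Tchh) plays the matching part in the inner root sheath and the medulla, where peptidylarginine deiminases (the Padi genes) convert its arginines to citrulline and transglutaminases cross-link it. S100a3 is a cysteine-rich calcium-binding protein of the hair cuticle and a substrate of these deiminases, and Foxn1 is the transcription factor whose loss leaves nude mice without visible hair. The Krtap genes and trichohyalin are known above all from the hair follicle, whereas some of the others are also used elsewhere.

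The sequences upstream of the 4 members that differed between the genotypes are shown to let the genes be compared at their starts. Each is the 250 bases before the start given by RefSeq (build GRCm38.p6), written 5′ to 3′ on the gene's own strand, with capitals marking matches to 6 short motifs on either strand. The first is the TATA box, written TATAAA. A pair of motifs stands for SOX factors, the first written AACAAT and the other written ACAAAG. The motif for TCF/LEF factors is written CTTTGA, that for homeodomain factors of the MSX and DLX families is written TAATTG, and that for FOXN1 itself is written GACGC. None of the 6 contains another on either strand, although neighbouring matches may share bases. RefSeq gives 4 starts for S100a3, of which the most downstream is shown.
Tchh, chr3:93442080-93442329, plus strand: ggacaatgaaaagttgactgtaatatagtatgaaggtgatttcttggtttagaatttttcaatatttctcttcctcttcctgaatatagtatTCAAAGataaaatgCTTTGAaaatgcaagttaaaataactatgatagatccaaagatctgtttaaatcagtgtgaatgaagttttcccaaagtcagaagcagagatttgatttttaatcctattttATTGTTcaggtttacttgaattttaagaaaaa
Foxn1, chr11:78386609-78386858, minus strand: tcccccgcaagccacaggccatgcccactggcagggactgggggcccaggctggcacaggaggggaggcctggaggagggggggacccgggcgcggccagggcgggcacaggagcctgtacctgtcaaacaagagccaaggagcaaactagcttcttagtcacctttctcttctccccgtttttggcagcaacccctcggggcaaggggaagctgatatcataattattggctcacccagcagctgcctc
S100a3, chr3:90599964-90600213, plus strand: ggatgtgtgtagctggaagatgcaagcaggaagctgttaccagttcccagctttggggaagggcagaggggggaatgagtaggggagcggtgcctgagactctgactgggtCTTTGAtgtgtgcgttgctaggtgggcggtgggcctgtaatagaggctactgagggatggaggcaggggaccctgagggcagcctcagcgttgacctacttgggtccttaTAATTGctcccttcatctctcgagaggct
Krtap17-1, chr11:99993995-99994244, minus strand: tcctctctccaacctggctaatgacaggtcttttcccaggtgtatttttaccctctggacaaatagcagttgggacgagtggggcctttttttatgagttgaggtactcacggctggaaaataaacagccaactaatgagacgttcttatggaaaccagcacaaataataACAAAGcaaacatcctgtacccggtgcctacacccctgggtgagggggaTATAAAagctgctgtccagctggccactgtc
The Tchh window held 2 matches to CTTTGA and 1 to AACAAT, the S100a3 window shown 1 to CTTTGA and 1 to TAATTG, and the Foxn1 window none of the 6 motifs. Each S100a3 window not shown held a different motif: ACAAAG 80 bases, GACGC (as its reverse complement) 5 bases and TATAAA 52 bases before its start. The Krtap17-1 window held ACAAAG 80 bases before the start and, closer in, TATAAA 31 bases before the start.

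The TATA box was the feature that most Krtap windows had in common. Of 38 Krtap genes 36 had a window in the RefSeq table, and 28 of these (77.8%) held TATAAA on either strand, against 12.4% of all 32851 windows. It lay as written between 20 and 40 bases before the start in 21 Krtap windows (58.3%) and in 1.99% of all windows. TAATTG was found in 30.6% of Krtap windows and 7.17% of all, ACAAAG in 38.9% and 16.5%, CTTTGA in 25.0% and 13.8%, AACAAT in 13.9% and 9.42%, and GACGC in 5.56% and 22.6%. Neighbouring Krtap genes are related copies, so their windows are not independent, and a letter match is not a binding site.

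Signals are the authors' log2 values, and differences are Sox9cKO minus SmoM2 on that scale, tested with limma over all genes or all probe sets with Benjamini-Hochberg adjustment and called under an adjusted p of 0.05. The table has no detection calls, so the 80 probe sets of olfactory and vomeronasal receptor genes, which skin is not known to use, served as a gauge of signal without transcript. Their means over the 4 arrays had a median of 3.83, with the 5th percentile at 3.15 and the 95th at 5.04. This gauge was chosen after seeing the data. Probe sets differ in affinity, so levels are not ranked between genes.

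Basal markers were high and Cd34 was low, which alone does not show how pure the sorted cells were. The 9 basal keratinocyte markers averaged between 10.82 and 11.63 per array, with Krt5 between 13.20 and 13.41, and Cd34 lay between 3.75 and 4.15, inside the receptor range. The other bulge markers read lay above the receptor range. Their means over the 4 arrays were 11.74 for Krt15, 10.91 for Lhx2, 9.44 for Lgr5, 9.32 for Nfatc1 and 8.17 for Tcf7l2. The 7 suprabasal markers were high as well, averaging between 11.96 and 12.55 per array. The bacterial labelling controls averaged 9.19 and 7.66 in replicates 1 and 2 of Sox9cKO, and for SmoM2 9.0 in replicate 1 against 8.30 in replicate 2. The Sox9 probe set with the highest signal in SmoM2 measured 10.21 and 10.02 there and 6.75 and 5.70 in Sox9cKO. Its difference was -3.89 (SE 0.31, limma adjusted p = 0.00171). Another, with a higher mean over the 4 arrays, measured 8.77 and 9.27 in SmoM2 and 8.06 and 8.48 in Sox9cKO. That difference, -0.75, was not called (limma adjusted p = 0.148). The last Sox9 probe set lay inside the receptor range and was not called either (-0.41, limma adjusted p = 0.309). 

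Of the 8 hair hardening genes 3 rose in Sox9cKO cells, Tchh, Foxn1 and S100a3, and none fell. Of the 38 Krtap genes none rose and 1, Krtap17-1, fell. Over all genes limma called 6.19%, with 2.66% higher and 3.53% lower in Sox9cKO. An unadjusted limma p under 0.05 was reached by 4 of the 38 Krtap genes and 5 of the 8 hair hardening genes. Over all genes it was reached by 3234 of 18193, a larger share than that of the Krtap genes. Of the 52 member probe sets 4 rose, those of Tchh and S100a3 and both of Foxn1, and none fell; over all probe sets 3.82% were called, 1.48% higher and 2.34% lower. The median log2 change was 0.61 over the hair hardening genes and 0.11 over the Krtap genes, beside 0.02 over all genes.

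Trichohyalin gave the largest change among the called members. Tchh measured 5.86 and 6.26 with Sox9 intact and 7.94 and 7.75 with Sox9 deleted. Both Sox9cKO arrays lay above both SmoM2 arrays, and all 4 lay above the receptor range. Tchh rose 3.44-fold (log2 1.78, SE 0.18; 95% interval 2.59 to 4.59-fold; limma adjusted p = 0.00179). Without any 1 of the 4 arrays the change lay between 1.58 and 1.98 and stayed called.

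Foxn1 was read by 2 probe sets that moved the same way. At the probe set with the higher mean it measured 6.29 and 6.16 in SmoM2 and 8.08 and 7.68 in Sox9cKO, a 3.14-fold rise (log2 1.65, SE 0.17; 95% interval 2.37 to 4.15-fold; limma adjusted p = 0.00222). At the other it measured 4.87 and 4.77 in SmoM2, inside the receptor range, and 5.95 and 5.97 in Sox9cKO, outside it (log2 change 1.14, limma adjusted p = 0.00655 over all probe sets). The groups did not overlap at either probe set, and the call held without any 1 array, with changes between 1.45 and 1.85 for the gene.

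S100a3 rose less. It measured 6.07 and 6.16 in SmoM2 against 6.87 and 6.86 in Sox9cKO, so that replicates of each genotype differed by far less than the genotypes did. The rise was 1.68-fold (log2 0.75, SE 0.13; 95% interval 1.35 to 2.08-fold; limma adjusted p = 0.0189). Its size varied little without any 1 array, between 0.71 and 0.79, but the adjusted p was then 0.110, 0.0877, 0.0709 and 0.0678 without SmoM2 replicates 1 and 2 and Sox9cKO replicates 1 and 2.

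The deiminase genes did not pass the test. Padi3, the deiminase best known for acting on trichohyalin and S100a3, measured 4.81 and 4.43 in SmoM2 and 7.74 and 5.25 in Sox9cKO. Both Sox9cKO arrays lay higher, but they differed from each other by more than the lower of them differed from SmoM2. The log2 change was 1.88 (SE 0.68, limma adjusted p = 0.198), with a 95% interval from 1.22 to 11.1-fold. It was 0.63 without Sox9cKO replicate 1 (adjusted p = 0.200) and 3.12 without Sox9cKO replicate 2 (adjusted p = 0.000567). Keratins of the inner root sheath and companion layer had list means of 7.42 and 6.89 in Sox9cKO replicates 1 and 2. For SmoM2 these means were 5.26 and 4.99. Within that list Krt75 measured 12.18 and 10.67 in Sox9cKO replicates 1 and 2, but Krt73 measured 6.71 and 7.88. The part of these keratins in the Padi3 values was not tested.

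Signals of the other Padi genes and Tchhl1 lay inside the receptor range or just above it. Padi4, the deiminase of white blood cells, measured 3.88 and 3.98 in SmoM2 and 4.63 and 4.17 in Sox9cKO (log2 change 0.47, limma adjusted p = 0.224). Its change was 0.24 without Sox9cKO replicate 1 and 0.71 without Sox9cKO replicate 2. Padi2, the broadly expressed member, measured between 5.20 and 5.51 on the 4 arrays, and Padi1, an epidermal deiminase, between 4.41 and 4.55, with overlapping groups. Their log2 changes were 0.07 and -0.01, with 95% intervals of 0.81 to 1.35-fold and 0.79 to 1.24-fold. Tchhl1, a relative of trichohyalin, measured 3.85 and 3.50 in SmoM2 and 3.48 and 3.46 in Sox9cKO (log2 change -0.21, limma adjusted p = 0.595). Its change was -0.035 without SmoM2 replicate 1.

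**Figure D1:**
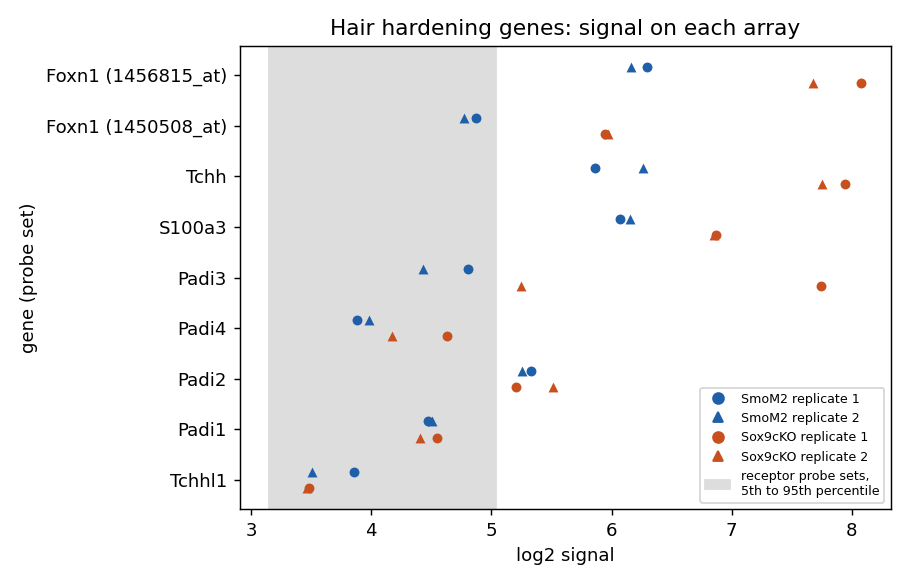
Log2 signal of the 8 hair hardening genes on each of the 4 arrays, one line per probe set, with blue for SmoM2, orange for Sox9cKO, circles for replicate 1 and triangles for replicate 2. The grey band is the 5th to 95th percentile of receptor probe sets (3.15 to 5.04). Tchh, Foxn1 and S100a3 are separated by genotype, and Padi3 is far higher in 1 Sox9cKO array, at 7.74, than in the other, at 5.25.

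Most Krtap genes gave a signal within the receptor range, although the median of their means was higher (4.22 against 3.83). A Krtap gene was read at its probe set of highest mean, whereas every receptor probe set was counted. The mean over the 4 arrays was under the receptor 95th percentile for 30 of 38 Krtap genes, as it was for 3 of the 8 hair hardening genes and for 32.1% of all genes. The median Krtap signal was 4.31 and 4.0 over the pair of SmoM2 arrays and 4.28 and 4.26 over the Sox9cKO pair. Only 1 Krtap gene, Krtap12-1, had a mean above the median of all genes, 6.53.

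Protein classes were assigned here by gene family, with Krtap10-4 and Krtap12-1, both above the receptor 95th percentile, counted as ultra-high sulfur. Placing them with the high-sulfur genes would change the counts of both classes and the high-sulfur median. As assigned, 4 of 8 high-sulfur, 11 of 14 ultra-high-sulfur and 12 of 13 high-glycine-tyrosine genes lay under that percentile. So did the 3 genes assigned to no class here, Krtap16-3, Krtap28-13 and Krtap31-1. Median changes were 0.23 for the high-sulfur genes, 0.09 for the ultra-high-sulfur genes and 0.11 for the high-glycine-tyrosine genes. The 1 called gene was an ultra-high-sulfur gene. By position, median changes were 0.15 for the 19 genes on chromosome 16, 0.11 for the 10 on chromosome 11 and 0.07 for the 5 on chromosome 7.

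**Figure D2:**
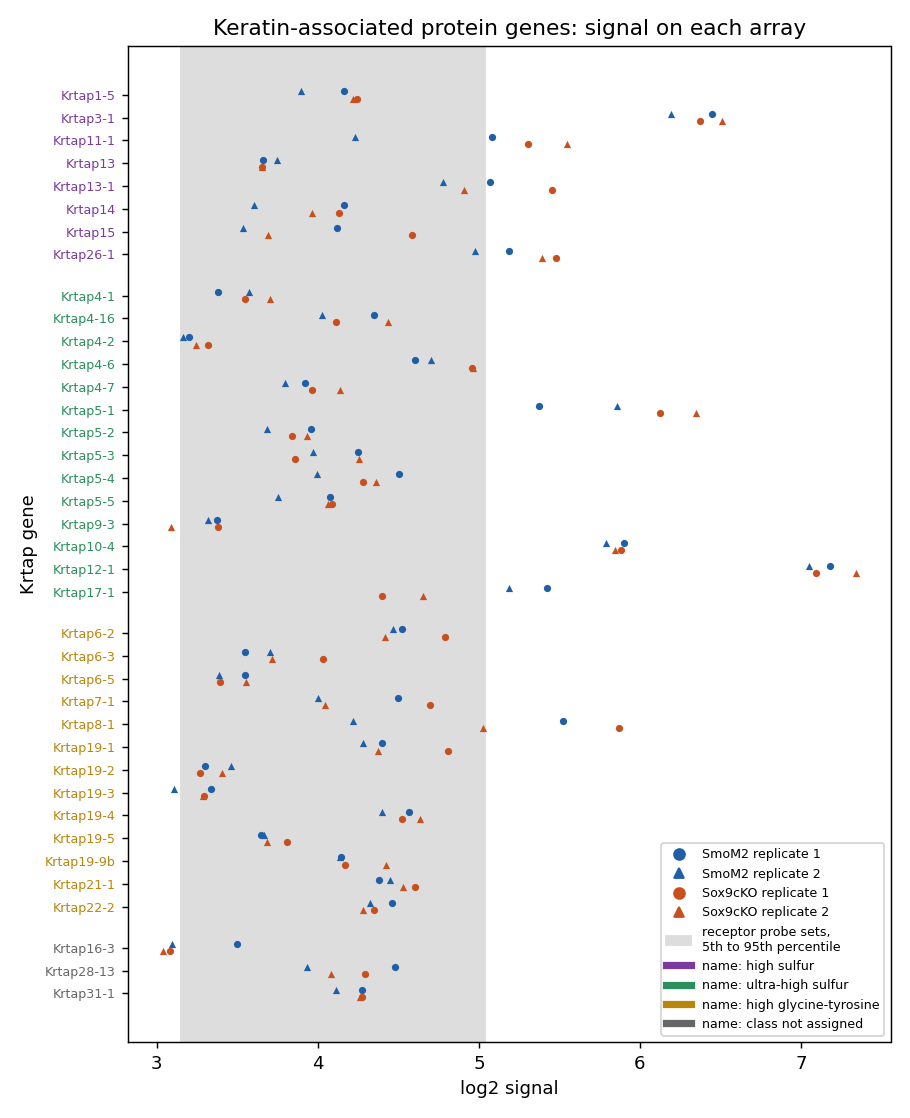
Log2 signal of the 38 Krtap genes on each array, with colours, symbols and grey band as in the plot of hair hardening genes, and names coloured by the protein class assigned here. Most genes lie within the band on all arrays. The blue points of Krtap17-1 stand clear to the right of its orange points, and those of Krtap13 and Krtap16-3 lie only just to the right.

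Krtap17-1, an ultra-high-sulfur gene at the edge of its cluster beside the hair keratin genes Krt33a and Krt33b, fell. It measured 5.42 and 5.18 in SmoM2, just above the receptor range, and 4.40 and 4.65 in Sox9cKO, inside it, with no overlap of the genotypes. The fall was 1.71-fold (log2 -0.78, SE 0.16, limma adjusted p = 0.0341 over genes), and the same probe set had an adjusted p of 0.0535 when all probe sets were tested. The call was lost without SmoM2 replicate 1 (-0.66, adjusted p = 0.182), without SmoM2 replicate 2 (-0.89, adjusted p = 0.0902) and without Sox9cKO replicate 1 (-0.65, adjusted p = 0.138). Its neighbours Krt33a and Krt33b had log2 changes of 0.28 and 0.30 and were not called.

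Among the Krtap genes that were not called, the larger changes were upward. Krtap11-1, a high-sulfur gene, measured 5.08 and 4.23 in SmoM2 and 5.31 and 5.54 in Sox9cKO (log2 change 0.77, SE 0.27, limma adjusted p = 0.179). The SmoM2 arrays differed from each other by more than the genotype means did, and without SmoM2 replicate 1 the change was 1.20 (adjusted p = 0.0356), while without SmoM2 replicate 2 it was 0.34 (adjusted p = 0.472). Krtap5-1, an ultra-high-sulfur gene, measured 5.37 and 5.86 in SmoM2 and 6.13 and 6.35 in Sox9cKO (log2 change 0.62, SE 0.19, limma adjusted p = 0.131). Without SmoM2 replicate 1 its change was 0.38 (adjusted p = 0.457). Its other probe set gave 0.61, and the groups did not overlap at either. These probe sets may also bind transcripts of near-identical Krtap copies, as may others of these families.

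Krtap8-1, a high-glycine-tyrosine gene, followed the replicate number more than the genotype. It measured 5.52 and 4.22 in SmoM2 and 5.87 and 5.03 in Sox9cKO, so that both replicate 1 arrays lay above both replicate 2 arrays (log2 change 0.58, SE 0.43, limma adjusted p = 0.581). Krtap15, a high-sulfur gene, had the same order, at 4.12 and 3.53 in SmoM2 and 4.58 and 3.69 in Sox9cKO. Replicate 1 exceeded replicate 2 in both genotypes for 18 of 38 Krtap genes, and replicate 2 exceeded replicate 1 in both for 5. These were 47.4% of Krtap genes for the first order, beside 26.6% of all genes. Among the 5844 genes under the receptor 95th percentile the shares in each order were 25.8% and 25.7%. The bacterial labelling controls given above were also higher in replicate 1 of each genotype, as was 18S rRNA, at 11.24 against 10.09 in SmoM2 and 11.12 against 9.87 in Sox9cKO. Their part in this order was not tested.

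Of the 8 Krtap genes with a mean above the receptor 95th percentile, 5 (Krtap5-1, Krtap8-1, Krtap11-1, Krtap13-1 and Krtap26-1) had changes between 0.26 and 0.77, none of them called, and Krtap3-1, Krtap10-4 and Krtap12-1 had changes between 0.02 and 0.13. Krtap12-1 measured 7.18 and 7.05 in SmoM2 and 7.10 and 7.34 in Sox9cKO at the probe set with the higher mean, while its other probe set lay between 4.03 and 4.43, so the probe sets disagree on its level. Krtap3-1 measured 6.45 and 6.19 against 6.38 and 6.51, and Krtap10-4 measured 5.90 and 5.79 against 5.89 and 5.84. At these probe sets the groups overlapped for all 3, and the 95% intervals were 0.84 to 1.37-fold, 0.85 to 1.40-fold and 0.81 to 1.26-fold. The groups did not overlap at the other Krtap12-1 probe set (log2 change 0.27, limma adjusted p = 0.495 over all probe sets). Krtap26-1, a high-sulfur gene, and Krtap4-6, an ultra-high-sulfur gene, showed small upward differences without overlap, of 0.35 (limma adjusted p = 0.256) and 0.30 (limma adjusted p = 0.294). Krtap13-1, Krtap19-1 and Krtap6-3 had log2 changes of 0.26, 0.25 and 0.25, and the other probe sets of Krtap19-1 and Krtap6-3 gave -0.10 and -0.00026.

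The 95% interval lay within 2-fold in either direction for 33 of 38 Krtap genes (86.8%), beside 90.0% of all genes. It reached beyond a 2-fold rise for Krtap5-1, Krtap8-1, Krtap11-1 and Krtap15 and beyond a 2-fold fall for Krtap17-1. Where a signal lies within the receptor range, such an interval describes the signal and gives no bound on the transcript. The log2 change was above 0 for 30 of 38 Krtap genes, beside 53.7% of all genes and 56.8% of genes under the receptor 95th percentile. The arrays did not overlap for 11 Krtap genes in the upward direction (28.9%, beside 26.0% of all genes) and for 3 in the downward direction (7.89%, beside 21.8%). The upward share was thus near that of all genes and the downward share below it. The 6 probe sets annotated with several genes had changes between -0.15 and 0.14 and none was called (limma, smallest adjusted p = 0.771).

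**Figure D3:**
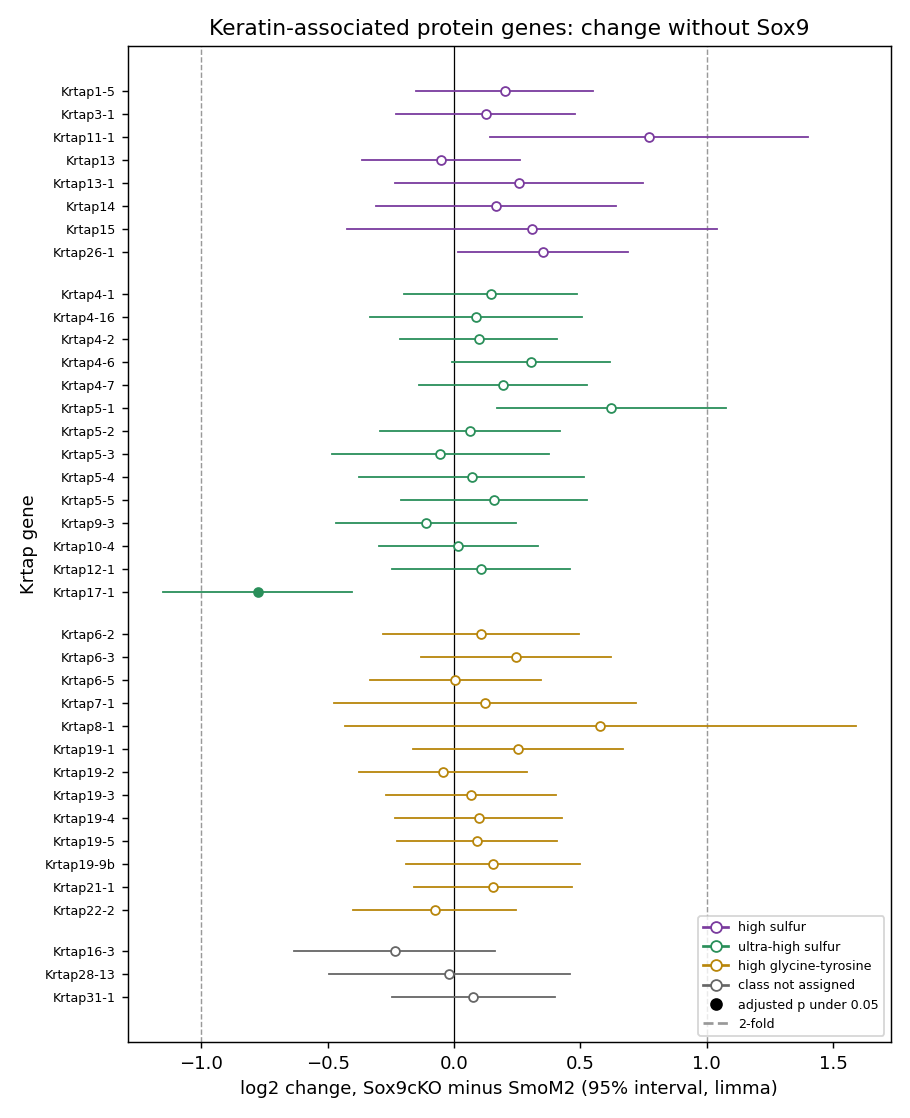
Log2 change (Sox9cKO minus SmoM2) of the 38 Krtap genes with 95% intervals from limma, coloured by the protein class assigned here, with dashed lines at a 2-fold change and a filled point where the adjusted p was under 0.05. Krtap17-1, at -0.78, is the filled point, and 33 of the intervals stay between the dashed lines.

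The keratins that these proteins act with were read beside them. Of 12 measured hair shaft keratins, the partners of the Krtap proteins, 1 rose and none fell, with a median change of 0.24. That gene was Krt32, a keratin of the hair cuticle, which measured 6.37 and 5.53 in SmoM2 and 7.23 and 7.19 in Sox9cKO (log2 change 1.26, SE 0.26, limma adjusted p = 0.0332). Its adjusted p was 0.0755 without SmoM2 replicate 2, 0.0883 without Sox9cKO replicate 1 and 0.0818 without Sox9cKO replicate 2. Of 8 measured keratins of the inner root sheath and companion layer, where trichohyalin is found, 5 rose and none fell, with a median change of 1.88. Krt25, for example, measured 4.89 and 4.16 in SmoM2 and 7.95 and 7.59 in Sox9cKO, and Krt71 measured 5.64 and 5.58 against 7.33 and 6.70. Krt71 lost its call without SmoM2 replicate 1 or 2 (adjusted p = 0.0681 and 0.0821). In sorted bulk cells, more cells of a type and more RNA per cell cannot be told apart.

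Trichohyalin stands in a row of fused S100 genes, and the 3 genes before it in RefSeq's order (GRCm38.p6), Flg, Hrnr and Rptn, rose as well. Tchhl1 and S100a10, the measured genes after it, were not called. Repetin (Rptn) measured 6.44 and 6.98 in SmoM2 and 8.50 and 8.89 in Sox9cKO (log2 change 1.98, SE 0.22, limma adjusted p = 0.00279). Hornerin (Hrnr) measured 3.54 and 3.93 against 5.59 and 6.97, and filaggrin (Flg) 6.27 and 5.85 against 7.32 and 8.43. Hrnr and Flg passed the test (limma adjusted p = 0.0121 and 0.0235) but lost the call without SmoM2 replicate 1 (0.101 and 0.0886) or 2 (0.0710 and 0.163), and with an intensity trend and robust prior (0.0850 and 0.0508).

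Of 11 measured genes on the list of fused S100 and cross-linking genes 7 rose and none fell, with a median change of 1.56. The list also holds Prr9, Lor, Ivl and Casp14, which are neither fused S100 genes nor transglutaminases. Prr9 rose by 6.28, the largest rise of all genes, and Lor by 1.56 (limma adjusted p = 2.56e-05 and 0.00135). Ivl and Casp14 were not called (log2 changes 0.81 and 0.56). The transglutaminase Tgm5 measured 8.67 and 8.58 in SmoM2 and 10.24 and 10.55 in Sox9cKO (log2 change 1.77, limma adjusted p = 0.00114). Tgm3, which cross-links trichohyalin, measured 8.14 and 7.82 against 9.13 and 9.28 (log2 change 1.23, limma adjusted p = 0.00530). The other measured transglutaminases were not called. Tgm1 lay lower in Sox9cKO without overlap (log2 change -0.61, limma adjusted p = 0.136), and Tgm2 had a log2 change of 0.008. Of 12 measured S100 genes other than S100a3 none rose and 3 fell, S100a1, S100a8 and S100a9, with a median change of -0.19. Its nearest measured neighbours, S100a16 and S100a4, had log2 changes of 0.06 and -0.50 and were not called. Krt15, Lgr5, Hrnr, Flg, Tgm1, Tgm2, Tgm3, Ivl, Casp14 and, below, Hoxc13 were named for their place or role after their values were seen.

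Of 16 measured hair follicle transcription factors on the list labelled hair shaft, which leaves out Foxn1, 5 rose and 3 fell. Those that rose were Msx2, Dlx2, Dlx3, Gata3 and Cux1, and those that fell were Vdr, Runx1 and Egr2. The list is not confined to factors of the shaft. Msx2, a homeodomain factor of the hair matrix known to act upstream of Foxn1, measured 5.92 and 5.72 in SmoM2 and 7.51 and 7.14 in Sox9cKO (log2 change 1.5, SE 0.17, limma adjusted p = 0.00315). Egr2 fell by 1.49 (SE 0.15, limma adjusted p = 0.00179), from 10.84 and 10.58 to 9.24 and 9.20. Hoxc13, a homeodomain factor known to act on hair keratin, Krtap and Foxn1 genes, measured 8.04 and 8.46 against 8.24 and 8.0, with overlapping groups (log2 change -0.14, limma adjusted p = 0.792). Its change was 0.075 without SmoM2 replicate 2.

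The list of other shaft and cuticle genes also split, with 3 of 13 measured higher and 1 lower. It is not confined to genes of the shaft and cuticle, since it holds the secreted growth factor gene Fgf5. The largest change on the list was that of Fgf5, which measured 5.32 and 4.68 in SmoM2 and 9.63 and 7.40 in Sox9cKO. Its log2 change was 3.52 (SE 0.63, limma adjusted p = 0.0198). The lipase gene Liph, needed for normal hair growth, measured 6.89 and 6.65 in SmoM2 and 9.64 and 8.77 in Sox9cKO (log2 change 2.44, limma adjusted p = 0.00280), and Hephl1, a ferroxidase gene, rose by 1.45. Vsig8 fell by 0.79 (limma adjusted p = 0.0150), a call lost without SmoM2 replicate 1 (0.0899), SmoM2 replicate 2 (0.0841) or Sox9cKO replicate 2 (0.0651).

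Markers of other cells that the sort could hold were read on the same arrays. Of 7 suprabasal markers 1 rose, of 9 basal markers 1 fell, of 6 bulge markers 1 rose and 2 fell, and of 7 measured sebocyte markers 2 fell. No melanocyte marker (of 8) or immune marker (of 8) was called by limma, and 1 of 7 fibroblast markers rose. That marker, the matrix proteoglycan gene Dcn, measured 8.85 and 8.70 in SmoM2 and 12.09 and 12.78 in Sox9cKO, while 5 of the 7 fibroblast markers lay under the receptor 95th percentile. The basal list means were 11.26 and 11.63 in SmoM2 and 10.82 and 11.04 in Sox9cKO, with a median change of -0.45. Its arrays did not overlap in the downward direction for 7 of the 9 genes, and 1 of the 9 had a change above 0. The list means per array were 8.54 and 7.71 in SmoM2 against 7.28 and 7.08 in Sox9cKO for sebocytes, 6.04 and 5.83 against 6.03 and 6.34 for melanocytes, and 4.83 and 4.64 against 4.89 and 4.98 for immune cells. For suprabasal cells they were 11.97 and 11.96 against 12.07 and 12.55. The part of these markers and cells in the Tchh, Foxn1 and S100a3 values was not tested.

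**Figure D4:**
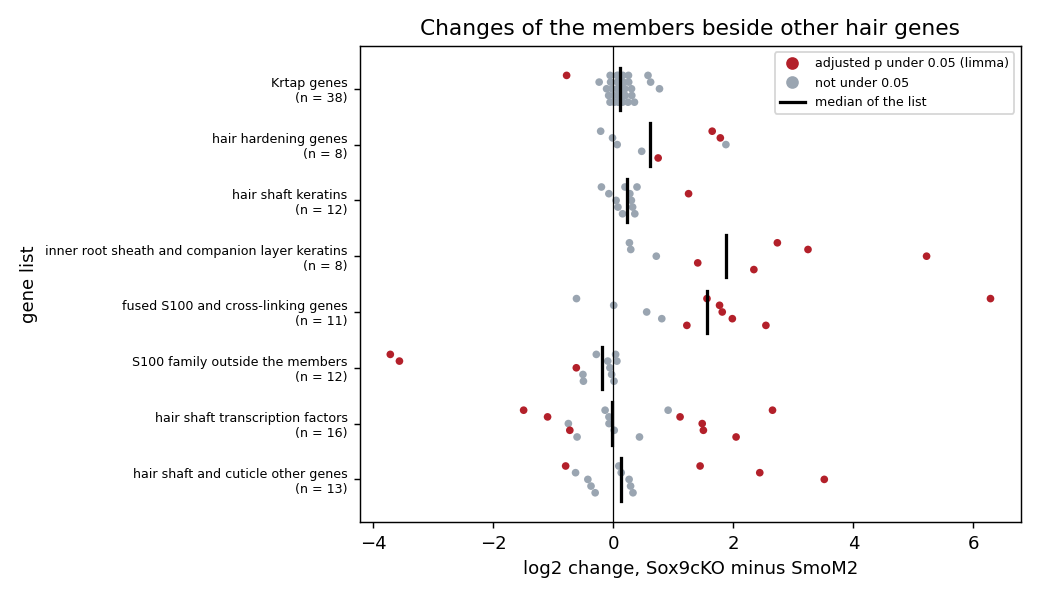
Log2 change (Sox9cKO minus SmoM2) of each measured gene in the 2 member groups and 6 lists of related genes, with red points for an adjusted p under 0.05 and a black bar at each median. The Krtap genes and hair shaft keratins sit close to 0 (medians 0.11 and 0.24). The inner root sheath and companion layer keratins and the list of fused S100 and cross-linking genes are shifted to the right (medians 1.88 and 1.56). The latter list also holds Prr9, Lor, Ivl and Casp14. The list of hair shaft transcription factors is not confined to factors of the shaft, and that of other shaft and cuticle genes also holds Fgf5.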

How the data were processed

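Per the labels' protocols, 100 ng of RNA per sample was amplified and biotin-labelled for Affymetrix 3' arrays. The authors deposited log2 signals, 1 per probe set and array. How they were normalized was not given in the sources used here; the submitters' processing notes name R 2.14.0. The log2 scale was read from the values, which were used as deposited. Precision is limited by the number of arrays, 2 per group.

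Of 45101 probe sets 64 were controls. The annotation gave 1 symbol to 34945 and several to 932, and 34741 took their current symbol through the entrez ID. The probe set with the highest mean stood for a gene, giving 18193 genes. Genes, and separately 45037 probe sets, were compared in R 4.3.3 with limma 3.58.1 (lmFit, eBayes, no covariate, two-sided, 7.17 degrees of freedom per gene with the prior), with Benjamini-Hochberg adjustment and a threshold of 0.05. The procedure was tested on simulated data drawn from the fitted limma model, which does not show how well it does on these arrays. An exact permutation test of 1 gene cannot go below p = 0.333 here.

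Named are all 8 hair hardening genes, Krtap genes that were called, the 10 of largest change and the 5 of highest mean, and up to 4 genes per list by smallest p. The members and lists were chosen with earlier results of these data known. Alternatives were averaging a gene's probe sets, no _x_at or _s_at probe sets, dim genes left out, an intensity trend with robust prior, quantile normalization, the replicate number as a block, and each array left out. Protein sequences were not used here.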

Additional observations from a re-analysis of the deposited data

How the results depend on the processing

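Tchh and Foxn1 stayed called and higher in Sox9cKO under every alternative run. S100a3 kept its direction but lost its call without any 1 array, and Krtap17-1 lost its call without 3 of the 4 arrays. Leaving out genes below the median of all gene means took both S100a3 and Krtap17-1 out of the test, so 0 members were called lower. With an intensity trend and robust prior, 1 member probe set was called lower. Replicate numbers recur in both genotypes, and the labels do not say that they pair the arrays. Over all genes same-numbered arrays deviated together only weakly (r = 0.0923, 2 pairs), although labelling controls and 18S rRNA were higher in replicate 1 of both genotypes. With the replicate number as a block, limma called 1919 genes, 7 member genes and 7 member probe sets higher, 1 member probe set lower and 21 list genes lower; a second Sox9 probe set, at -0.75, was then also called. The members added were Padi3 (adjusted p = 0.00474), Krtap5-1 (0.0221), Krtap8-1 (0.0443) and Krtap11-1 (0.0480), so that 3 Krtap genes were called higher under the block where none was without it. Leaving out 1 array at a time gave 534 to 900 called genes, 2 to 3 members higher, 0 to 1 lower, 15 to 25 list genes higher and 7 to 11 lower, fewest without SmoM2 replicate 2. Small changes then took either sign, in these log2 ranges: Krtap10-4 -0.037 to 0.073, Krtap12-1 -0.016 to 0.23, Krtap13-1 -0.014 to 0.53, Krtap15 -0.14 to 0.76, Krtap3-1 -0.0027 to 0.25, Krtap8-1 -0.072 to 1.23, Padi1 -0.083 to 0.060, Padi2 -0.089 to 0.22 and Hoxc13 -0.35 to 0.075. The cause was not tested, beyond the fewer arrays or genes that an alternative uses. The low signal of most Krtap genes limits what their changes can show.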
